A study of Mus musculus with 24 samples.

Results

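The 24 samples of terminal ileum in this series were divided by a score of mature enterocyte transcripts, the mean log2 normalized count of Abcb1a, Dpp4, Ceacam1 and Btnl1. Within each treatment label, samples above the median score of that label were termed enterocyte-rich and the others enterocyte-poor. Of the 24 samples, 11 were rich and 13 were poor, and no sample was left out. The division was defined by measured values of these same samples and is not a treatment. The comparison of rich with poor therefore describes which other genes varied together with the 4 score genes, and the score genes themselves were not tested against it.

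The samples came from C57BL/6 mice at week 7 of life, 1 mouse per sample as far as the labels show. The question of the study was whether 1 macrolide course given early in life is enough to alter the host, or whether several are needed. Control mice received water without antibiotic, PAT1 mice (pulsed antibiotic treatment) received 1 course of tylosin through the milk of a treated dam while nursing, and PAT3 mice received that course and further courses after it, 3 in all. There were 7 Control samples (4 male, 3 female), 7 PAT1 samples (4 male, 3 female) and 10 PAT3 samples (4 male, 6 female). Litters were allocated whole and mice were caged by sex and treatment after weaning. Litter and cage effects and treatment cannot be told apart, and which mice shared a litter was not known here. Transcripts of 547 genes were counted with the NanoString nCounter mouse immunology panel, which hybridizes a colour-coded probe pair to each transcript and counts single molecules without amplification. The text of the study gives sizes of the PAT1 and PAT3 groups in this assay that differ from the labels. The labels were followed, and a sample under the wrong label would change the division and each comparison. Samples are numbered within each label in the order of the records, and the numbers pair no animals.

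The ileal epithelium is renewed from stem cells in the crypts, and its cells mature as they move up the villus. Mature enterocytes carry digestive peptidases, transporters and adhesion proteins on their brush border, take up nutrients, and pass secretory IgA from the lamina propria into the lumen while they do so. The lamina propria below them holds plasma cells, T cells, macrophages and stromal cells, and lymphoid follicles such as Peyer's patches hold B cells. A piece of bulk ileum is a mixture of all of these. A lower normalized count can come from fewer cells of a type or from less RNA per cell, and these cannot be told apart in bulk samples.

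Rich samples scored from 13.14 to 13.52, with a median of 13.29, and poor samples from 11.46 to 13.15, with a median of 12.57. The poor samples were the more scattered of the 2 sides. The SD of the score was 0.07, 0.15 and 0.08 among the rich samples of Control, PAT1 and PAT3 (n = 3, 3 and 5) and 0.41, 0.59 and 0.70 among the poor (n = 4, 4 and 5). The lowest scores belonged to PAT3 replicate 5 (11.46), PAT1 replicate 1 (11.73) and Control replicate 4 (12.01), so each label held at least 1 strongly enterocyte-poor sample. Close to the dividing line the sides nearly met. In Control the lowest rich sample scored 13.14 and the highest poor sample 12.90, in PAT1 these values were 13.23 and 13.00, and in PAT3 13.27 and 13.15. Because each label was divided at its own median, 1 poor sample, PAT3 replicate 8, scored above the lowest rich sample of the series, Control replicate 5.

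**Figure D1:**
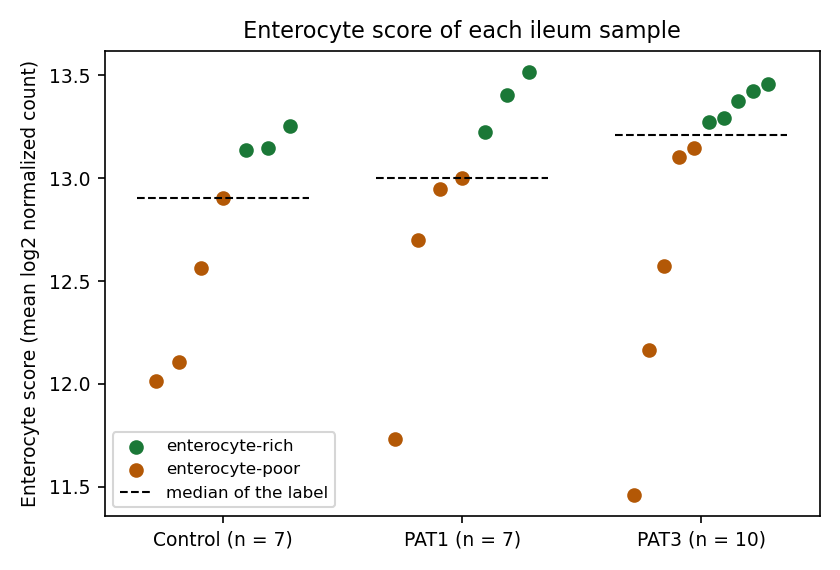
Enterocyte score (mean log2 normalized count of Abcb1a, Dpp4, Ceacam1 and Btnl1, vertical axis) of each of the 24 samples, in order of score within each treatment label. Green points are enterocyte-rich, brown points enterocyte-poor and dashed lines the label medians. The rich samples lie in a narrow band from 13.14 to 13.52, while the poor samples reach down to 11.46.

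The 4 score genes encode proteins of the mature enterocyte surface. Abcb1a is a drug efflux transporter of the P-glycoprotein family, Dpp4 a brush border dipeptidase, Ceacam1 an epithelial adhesion molecule, and Btnl1 a butyrophilin-like protein that supports intraepithelial gamma-delta T cells. As deviations from the label means, their log2 values correlated with each other at r from 0.81 to 0.92 over the 24 samples, which share probes, RNA and total count within a sample. This is a description of how closely the marker genes moved together within labels. Abcb1a separated rich from poor without overlap in each label. In Control it was 12.83 ± 0.30 (SD, n = 3) in rich and 11.68 ± 0.33 (n = 4) in poor samples, in PAT1 13.55 ± 0.24 (n = 3) and 12.49 ± 0.79 (n = 4), and in PAT3 13.67 ± 0.14 (n = 5) and 12.70 ± 0.65 (n = 5). Ceacam1 separated the sides without overlap in PAT1 only, and in Control its means differed by 0.26 on the log2 scale, against 0.80 in PAT1 and 0.92 in PAT3.

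Between labels the same 4 genes did not move together. The score itself averaged 12.73 ± 0.51 (SD, n = 7) in Control, 12.93 ± 0.60 (n = 7) in PAT1 and 12.93 ± 0.66 (n = 10) in PAT3. Behind these close means, Ceacam1 fell in both antibiotic groups, by 1.26 on the log2 scale in PAT1 (SE 0.29, adjusted p = 0.00287 in limma over all 547 genes) and by 1.05 in PAT3 (SE 0.27, adjusted p = 0.00377). Btnl1 rose by 0.94 in PAT1 (SE 0.29, adjusted p = 0.0194 in limma), and its difference in PAT3 was 0.46 (adjusted p = 0.184). Abcb1a rose by 1.01 in PAT3 (SE 0.33, adjusted p = 0.0217 in limma), and its difference in PAT1 was 0.77 (adjusted p = 0.152). Dpp4 differed from Control by 0.35 in PAT1 and 0.36 in PAT3, with adjusted p of 0.557 and 0.43 in limma. In the same comparisons 18.5% of all genes passed the threshold of adjusted p under 0.05 in PAT1 and 31.8% in PAT3, and both share the Control samples. The division within labels kept these opposite shifts out of the comparison of rich with poor.

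**Figure D2:**
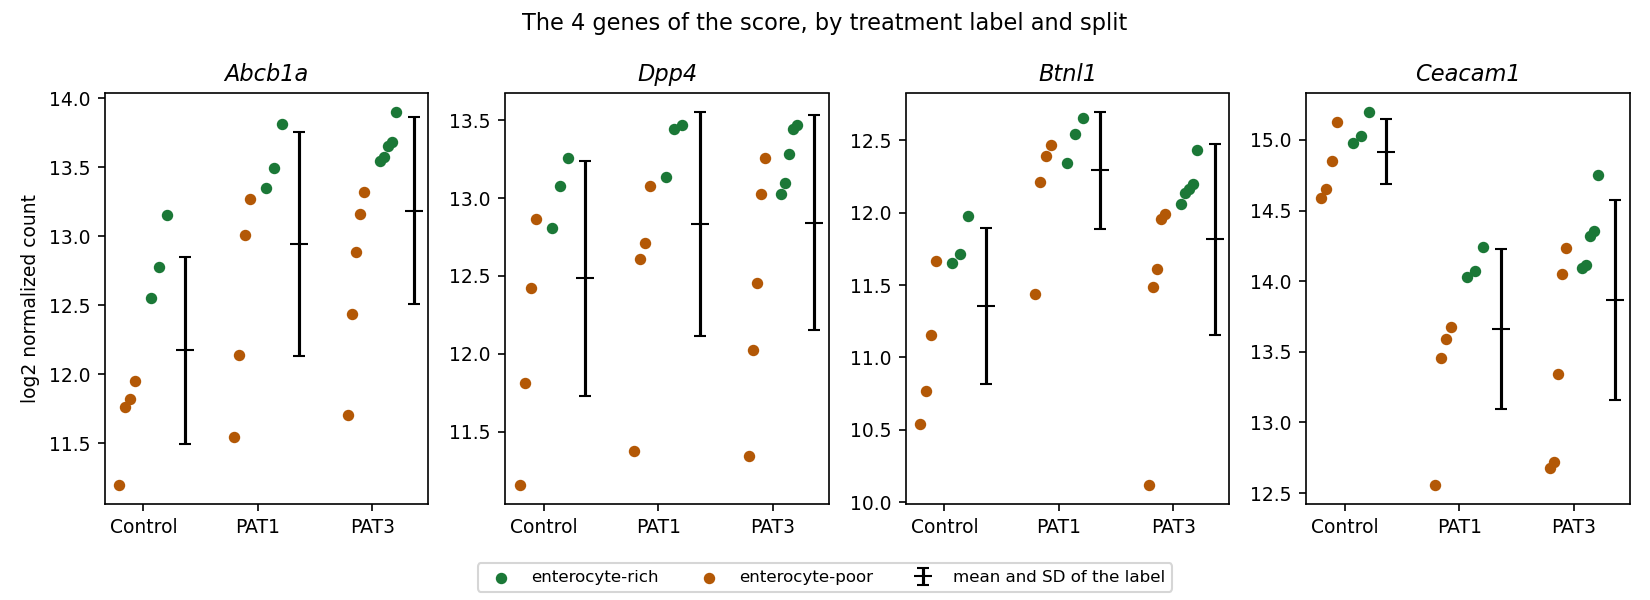
Log2 normalized count (vertical axes, a separate range for each gene) of the 4 genes of the score in Control (n = 7), PAT1 (n = 7) and PAT3 (n = 10) samples. Green points are enterocyte-rich, brown points enterocyte-poor, and black bars the mean and SD of all samples of a label. Ceacam1 is lower in both antibiotic groups than in Control, whereas Abcb1a and Btnl1 have their lowest label mean in Control.

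Over the 543 genes outside the score, fitted in limma with treatment label as a covariate, 94 genes (17.3%) differed between rich and poor at adjusted p under 0.05 and are termed called. Of these, 57 (10.5% of genes tested) were higher and 37 (6.81%) lower in rich samples. Differences are on the log2 scale, rich minus poor, and those of called genes ran from -0.91 to 1.18. The median over all genes was -0.04. The 94 called genes had the same sign in the 3 labels, compared with 53.4% of all genes tested, though the call itself was made from those samples. Of the called genes, 1 changed at least 2-fold (Mme, 2.26-fold). For 51 of the 57 higher genes each of the 11 rich samples lay above the poor mean of its own label, and for 24 of the 37 lower genes each lay below it. These counts describe genes picked by their difference in the same samples and add no support to the calls.

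The count rested to a large degree on a few samples. Without PAT1 replicate 1, PAT3 replicate 5 and PAT3 replicate 7, which had the lowest scores of the antibiotic groups, 8 genes were called. They were 7 higher (App, Cx3cl1, Ltb4r2, Maf, Npc1, Phlpp2 and Prkcd) and 1 lower (Icos), with adjusted p from 0.0455 to 0.0496 in limma. This fit was chosen after seeing the data and left out no Control sample. Control replicates 4 (12.01) and 2 (12.11) scored below PAT3 replicate 7 (12.17). The 94 genes kept their sign in that fit, and the median difference of those called higher went from 0.43 to 0.30 and of those called lower from -0.44 to -0.35. Leaving out 1 PAT1 sample could also move the count, to 59 without replicate 1, 41 without replicate 5 and 31 without replicate 6. Centring each sample on its own median, which adds 0.10 to each difference, gave 100 genes higher and 15 lower, 87.0% higher compared with 60.6%. The sign of each of the 94 genes was the same under that centring and under quantile normalization.

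The 12 largest called rises were those of Mme, Maf, Btnl2, Phlpp2, Pigr, Npc1, Cx3cl1, App, Gm10499, Igf2r, Prdm1 and Prkcd. Mme encodes neprilysin, a membrane peptidase of the brush border. It ranged from 8.79 to 10.96 in rich samples (median 10.11) and from 5.95 to 10.37 in poor samples (median 9.70), and rose by 1.18 (SE 0.36, adjusted p = 0.0319, limma). The groups overlapped, and the poor tail was formed by Control replicate 4 (5.95), PAT3 replicate 5 (6.45) and Control replicate 2 (7.30). Maf, a transcription factor also known from T cells and macrophages, ranged from 9.31 to 10.69 in rich (mean 10.08) and from 8.29 to 10.24 in poor samples (mean 9.15), a rise of 0.92 (SE 0.20, adjusted p = 0.0148, limma). Its difference was 0.85 within Control, 1.16 within PAT1 and 0.81 within PAT3. Phlpp2, a phosphatase that removes an activating phosphate from Akt, ranged from 9.89 to 10.43 in rich (median 10.12) and from 8.55 to 10.07 in poor samples (median 9.46), a rise of 0.71 (SE 0.15, adjusted p = 0.0148, limma). Its within-label differences were close to each other, at 0.70, 0.65 and 0.74. Rich and poor values did not overlap in PAT3 or, narrowly, in Control (lowest rich 9.8870, highest poor 9.8865), and they overlapped in PAT1.

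Npc1, which exports cholesterol from lysosomes, ranged from 9.77 to 10.69 in rich (median 10.23) and from 8.80 to 10.13 in poor samples (median 9.61), with a rise of 0.64 (SE 0.14, adjusted p = 0.0148, limma). Rich and poor values did not overlap in PAT1 or in PAT3, and they met in Control. Cx3cl1, the membrane-bound chemokine fractalkine, ranged from 9.89 to 10.34 in rich (median 10.14) and from 8.39 to 10.09 in poor samples (median 9.65), and rose by 0.61 (SE 0.15, adjusted p = 0.0201, limma). App, the amyloid precursor protein, rose by 0.61 (SE 0.14, adjusted p = 0.0148, limma), from a poor median of 12.32 to a rich median of 13.01. Igf2r, the receptor that carries mannose-6-phosphate-tagged enzymes to lysosomes, rose by 0.58 (SE 0.17, adjusted p = 0.0257, limma). Prkcd, a signalling kinase of the protein kinase C family, rose by 0.55 (SE 0.13, adjusted p = 0.0165, limma), and Gm10499, a predicted gene, by 0.59 (SE 0.18, adjusted p = 0.0327, limma). Other called genes with epithelial or adhesive roles were Itga6, an integrin of the basal epithelial surface (0.48, adjusted p = 0.025, limma), the sialomucin Cd164 (0.46, adjusted p = 0.0209), the tetraspanin Cd82 (0.45, adjusted p = 0.042) and the kinase Src (0.51, adjusted p = 0.0165), which were named after their values were seen.

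**Figure D3:**
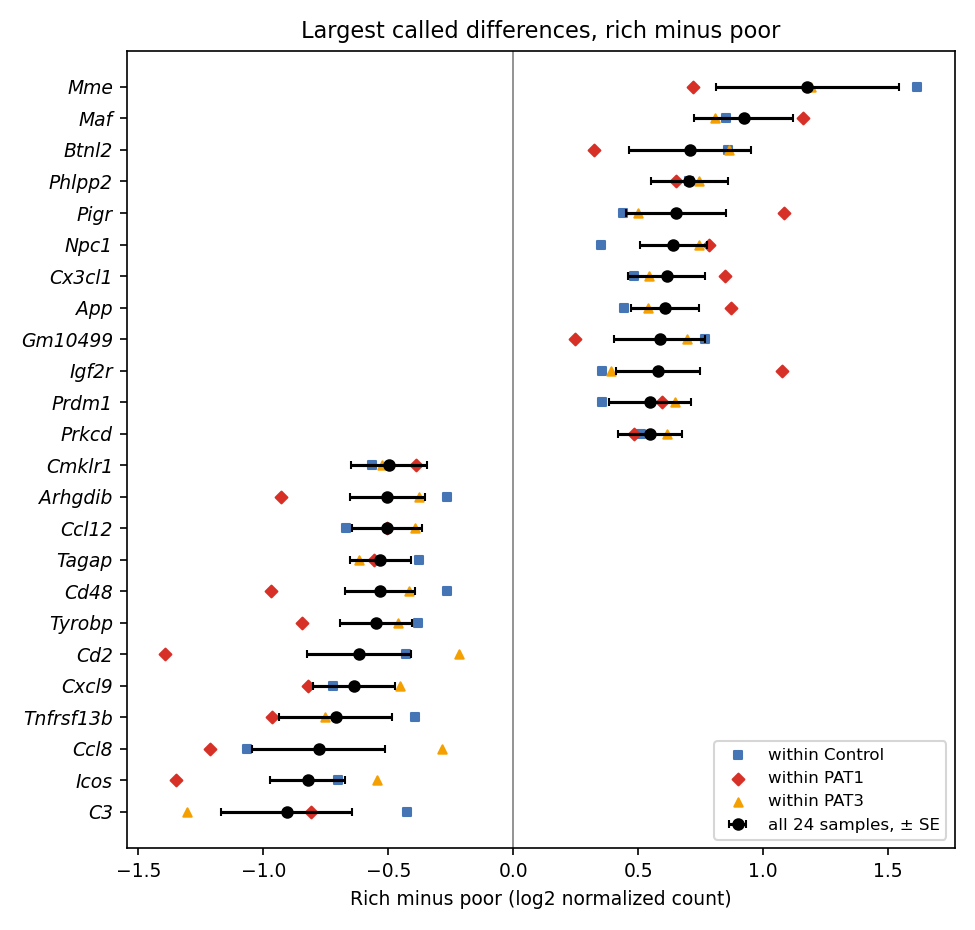
Rich minus poor difference (log2 normalized count, horizontal axis) of the 12 called genes with the largest rise and the 12 with the largest fall among those with a mean log2 value of at least 5. Black points with bars are the estimate over all 24 samples and its SE, and coloured symbols the differences within Control, PAT1 and PAT3. Symbols of the 3 labels lie on the same side of 0 for each gene, with the widest spreads for Cd2, Ccl8, Mme and C3.

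Among 12 other genes of enterocytes and villus epithelium on the panel, 3 rose (Mme, Btnl2 and Nt5e), none fell and 9 were not called, with a median of 0.18. Btnl2, a butyrophilin-like relative of Btnl1, ranged from 8.75 to 9.65 in rich (median 9.17) and from 6.40 to 9.54 in poor samples (median 8.90), a rise of 0.71 (SE 0.25, adjusted p = 0.0488, limma). Nt5e, the ectoenzyme CD73 that makes adenosine from AMP, rose by 0.53 (SE 0.18, adjusted p = 0.049, limma). Both calls lay near the threshold and were lost on leaving out a sample in 15 and 17 of 24 cases, with adjusted p up to 0.0822 and 0.104. The list was therefore not uniformly higher. Ccl25, the small intestinal chemokine that attracts Ccr9-bearing lymphocytes, ranged from 13.45 to 14.20 in rich (median 13.96) and from 12.19 to 14.73 in poor samples (median 13.95), a difference of 0.23 (adjusted p = 0.258, limma). Its difference was 0.76 within Control, -0.10 within PAT1 and 0.09 within PAT3. The cytokine Il15, which sustains intraepithelial lymphocytes, differed by 0.42 (adjusted p = 0.0669, limma), Tnfrsf14, the receptor HVEM, by 0.25 (adjusted p = 0.162) and the tetraspanin Cd9 by 0.12 (adjusted p = 0.41). Differences were below 0 for the fatty acid transporter Cd36 (-0.47, adjusted p = 0.311, limma), the lipid antigen-presenting molecule Cd1d1 (-0.35, adjusted p = 0.199) and the iron-regulatory protein Hfe (-0.21, adjusted p = 0.131). Il18 and Pparg differed by 0.08 and -0.03, with adjusted p of 0.812 and 0.94 in limma, and their sign depended on the processing. Over all genes 10.5% were called higher. Of these 12, 5 were called higher under centring (median of the list 0.27) and 0 under quantile normalization (median 0.004). Without the 3 lowest-scoring antibiotic samples 0 were called higher (median 0.09). As deviations from label means over the 24 samples, Mme correlated with the 4 score genes at r from 0.63 to 0.90 and Ccl25 at r from 0.28 to 0.73, a description only.

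Of 14 genes of crypt, secretory and inducible epithelium, 3 rose (Pigr, Lif and Tnfsf15), C3 fell and 10 were not called, with a median of 0.07. Over all genes 10.5% were called higher and 6.81% lower. Of the 14, 4 were called higher and 1 lower under centring, and 2 higher and 2 lower under quantile normalization. Without the 3 lowest-scoring antibiotic samples 0 were called. Pigr, through which epithelial cells deliver dimeric IgA to the lumen, ranged from 14.63 to 15.88 in rich (median 14.92) and from 12.75 to 15.47 in poor samples (median 14.67), and rose by 0.65 (SE 0.20, adjusted p = 0.0306, limma). Rich and poor values did not overlap in Control (15.65 to 15.88 against 15.12 to 15.47) or in PAT1 (14.63 to 14.93 against 12.98 to 14.44), and they overlapped in PAT3. The difference was 1.08 within PAT1, 0.44 within Control and 0.50 within PAT3. Under quantile normalization it was 0.28, with adjusted p = 0.346 in limma. The cytokines Lif and Tnfsf15 rose by 0.43 and 0.36 (adjusted p = 0.036 and 0.0339, limma). C3, the central complement component, which epithelium and other cells make, ranged from 7.87 to 10.16 in rich (median 9.21) and from 9.08 to 12.24 in poor samples (median 10.14), a fall of 0.91, its rich minus poor difference being -0.91 (SE 0.26, adjusted p = 0.0257, limma). The intestinal lectin Itln1 differed by -0.01 (adjusted p = 0.98, limma), with 0.63 within Control, 0.04 within PAT1 and -0.48 within PAT3. The inducible nitric oxide synthase Nos2 differed by 0.53 (adjusted p = 0.0642, limma) and the epithelial oxidase Nox1 by 0.15 (adjusted p = 0.771).

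Part of the myeloid list was lower in rich samples. Of 19 genes, 6 fell (Tyrobp, Fcer1g, Fcgr1, Fcgr4, Cybb and Ncf4), none rose and 13 were not called, with a median of -0.28, compared with 6.81% of all genes called lower and a median over all genes of -0.04. Tyrobp, the adaptor DAP12 of activating receptors on myeloid and natural killer cells, ranged from 9.32 to 9.86 in rich (median 9.52) and from 9.49 to 10.95 in poor samples (median 10.10), a difference of -0.55 (SE 0.14, adjusted p = 0.0216, limma). Each of the 11 rich samples lay below the poor mean of its label. Fcer1g, the signalling chain shared by Fc receptors, differed by -0.40 (adjusted p = 0.0339, limma), and the phagocyte oxidase subunits Cybb and Ncf4 by -0.33 and -0.41 (adjusted p = 0.0443 and 0.0333). Classical macrophage and dendritic cell markers on the same list did not pass the test. Emr1, the F4/80 antigen, differed by -0.18 (adjusted p = 0.133, limma), the growth factor receptor Csf1r by -0.23 (adjusted p = 0.0871), Itgax (CD11c) by -0.17 (adjusted p = 0.363) and Itgam (CD11b) by 0.29 (adjusted p = 0.119). With each sample centred on its median, 2 of the 19 were called lower and 1 higher, and the median of the list was -0.18. Under quantile normalization 2 were called lower, and without the 3 lowest-scoring antibiotic samples 0, with medians of -0.24 and -0.26.

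Fc receptor, complement and chemokine genes with related roles, grouped after their values had been seen, are given as counts. Of 7 Fc receptor genes 5 fell (Fcer1g, Fcgr1, Fcgr2b, Fcgr3 and Fcgr4), with Fcgr2b, the inhibitory receptor, at -0.44 (SE 0.11, adjusted p = 0.0201, limma). Over all genes 6.81% were called lower. Of the 7 Fc receptor genes 1 was called lower under centring, 1 under quantile normalization and 0 without the 3 lowest-scoring antibiotic samples. C1qa and C1qb, which encode chains of the first complement component and are made by macrophages, fell by 0.38 and 0.39 (adjusted p = 0.0201 for each, limma). C1qa ranged from 9.12 to 9.40 in rich (median 9.29) and from 9.28 to 10.09 in poor samples (median 9.64), with differences of -0.41, -0.30 and -0.41 within Control, PAT1 and PAT3. Together with C3 they were the called members among 18 complement genes. Of the 18, 1 was called lower and 2 higher under centring, and 4 were called lower under quantile normalization. Without the 3 lowest-scoring antibiotic samples 0 were called lower. Of 4 monocyte-attracting chemokines Ccl7, Ccl8 and Ccl12 fell, by 0.38, 0.78 and 0.50 (adjusted p = 0.0413, 0.0443 and 0.025, limma), and Ccl2 differed by -0.27 (adjusted p = 0.247). Of these 4, 0 were called in limma under centring, under quantile normalization or without the 3 lowest-scoring antibiotic samples. The medians of the 4 in these fits were -0.34, -0.31 and -0.40. Ccl8 overlapped widely, from 5.81 to 8.64 in rich and from 5.78 to 9.65 in poor samples, and its call was lost on leaving out a sample in 14 of 24 cases. The cytokines Il1a and Il1b differed by -0.58 and -0.46 (adjusted p = 0.0356 and 0.0339, limma), the costimulator Cd86 by -0.44 (adjusted p = 0.0216), and the chemerin receptor Cmklr1 by -0.50 (SE 0.15, adjusted p = 0.0306).

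**Figure D4:**
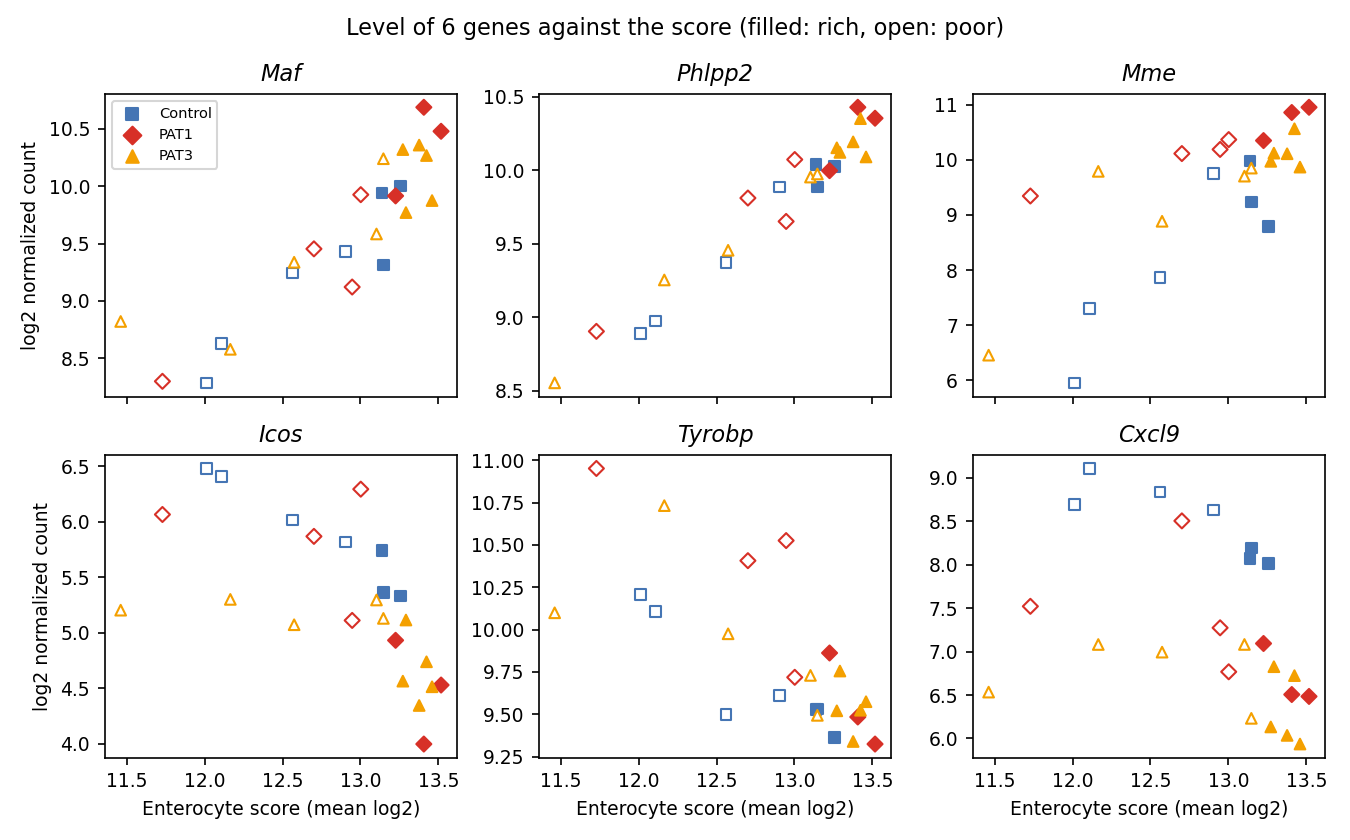
Log2 normalized count (vertical axes, a separate range for each gene) of Maf, Phlpp2, Mme, Icos, Tyrobp and Cxcl9 against the enterocyte score (mean log2, horizontal axis) in the 24 samples. Filled symbols are enterocyte-rich, open symbols enterocyte-poor, and shape and colour give the treatment label. Maf, Phlpp2 and Mme are higher, and Icos, Tyrobp and Cxcl9 lower, toward the right, and Cxcl9 also differs in level between Control and the antibiotic groups.

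Icos, the inducible costimulator of activated and follicular helper T cells, had the smallest p of the genes tested. It ranged from 4.0 to 5.74 in rich (median 4.74) and from 5.07 to 6.48 in poor samples (median 5.82), a difference of -0.82 (SE 0.15, adjusted p = 0.00657, limma). Rich and poor values did not overlap in Control (5.33 to 5.74 against 5.82 to 6.48) or in PAT1 (4.0 to 4.93 against 5.11 to 6.29), and they overlapped in PAT3. Fitted within each label, Icos was also the only gene called in PAT1 (-1.35, adjusted p = 0.0161, limma), and no gene was called in Control or PAT3. In these smaller fits 44, 132 and 75 genes had an unadjusted p under 0.05 in Control, PAT1 and PAT3, and the smallest adjusted p was 0.562 in Control and 0.323 in PAT3. An interaction test across the labels in limma called no gene (smallest adjusted p = 0.618), with 24 genes at an unadjusted p under 0.05.

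Of 16 genes of T cell identity, 2 fell (Icos and Cd2), none rose and 14 were not called, beside 6.81% of all genes called lower. Cd2, an adhesion receptor of T and natural killer cells, differed by -0.62 (SE 0.21, adjusted p = 0.042, limma), with -1.39 within PAT1 and -0.43 and -0.22 within Control and PAT3, and the call was lost on leaving out a sample in 12 of 24 cases. The T cell receptor chains Cd3d and Cd3e differed by -0.27 and 0.10, and the coreceptors Cd4 and Cd8a by -0.21 and 0.40, with adjusted p from 0.0946 to 0.577 in limma. The median of the list was -0.08, and 0.02 under centring and under quantile normalization, so the list as a whole had no settled direction. Other genes known from lymphocytes or leukocytes at large that were called lower included Cd48, a ligand of the receptor Cd244 (-0.53, SE 0.14, adjusted p = 0.0216, limma), Tagap, a GTPase-activating protein of activated T cells (-0.53, SE 0.12, adjusted p = 0.0165), Arhgdib, a GDP dissociation inhibitor of blood cells (-0.50, SE 0.15, adjusted p = 0.0272), and the integrin chain Itgb2 (-0.33, adjusted p = 0.0457). Each of the 11 rich samples lay below the poor mean of its label for these 4 genes. Zbtb7b, a transcription factor known from T cells, was called in the other direction (0.46, SE 0.12, adjusted p = 0.0201, limma).

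Of 19 genes of cytotoxic and intraepithelial lymphocytes, 1 fell (Klrk1, the receptor NKG2D, -0.42, SE 0.13, adjusted p = 0.0293, limma), none rose and 18 were not called, with a median of -0.01. The share of all genes called lower was 6.81%. The granzymes Gzma and Gzmb differed by 0.40 and 0.41, with adjusted p of 0.361 and 0.239 in limma. Tbx21, the transcription factor T-bet, differed by 0.29 (adjusted p = 0.0583, limma), with each of the 11 rich samples above the poor mean of its label. The epithelial homing receptors Ccr9 and Cxcr6 differed by -0.24 and -0.09 (adjusted p = 0.273 and 0.606, limma).

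No gene of 23 on the B cell and follicle list was called, although 21 differed by less than 0 and the list had a median of -0.49. The B cell surface molecule Ms4a1 ranged from 3.29 to 8.78 in rich (median 4.24) and from 4.32 to 10.65 in poor samples (median 5.06), a difference of -1.12 with SE 0.64 (adjusted p = 0.216, limma). The follicular chemokine Cxcl13 differed by -0.74 (SE 0.29, adjusted p = 0.0794, limma). These genes spread widely in either set of samples, and with their mean as a covariate 87 genes were called, 76 of them among the 94. Of 8 MHC class II genes none was called and the 8 differences were below 0, with a median of -0.26. Within Control, however, Ciita, H2-DMa, H2-Ob, Cd74, H2-Ab1, H2-Eb1 and H2-Aa lay above 0, at 0.02 to 0.23, and H2-DMb2 at -0.31. With the mean of the B cell genes as a covariate the median of the list was -0.08. The class II chains H2-Eb1 and H2-Aa differed by -0.27 and -0.33, with adjusted p of 0.0845 and 0.0935 in limma. Under quantile normalization 4 of the 8 were called lower.

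Of 8 plasma cell and IgA genes, Prdm1 rose, 3 fell (Irf4, Slamf7 and Tnfrsf13b) and 4 were not called, with a median of -0.17. With the mean of the B cell genes in the model 1 of the 8 was called lower and 1 higher. On leaving out a sample in turn, Irf4 was called in 9 and Tnfrsf13b in 16 of 24 fits. Over all genes 6.81% were called lower. Prdm1 encodes Blimp-1, a transcription factor of plasma cells that is also known from developing gut epithelium. It ranged from 7.13 to 8.37 in rich (median 7.84) and from 6.52 to 8.57 in poor samples (median 7.34), a rise of 0.55 (SE 0.16, adjusted p = 0.0288, limma). Its partner in plasma cell differentiation, Irf4, moved the other way, at -0.48 (adjusted p = 0.0443, limma). So did the surface receptor Slamf7, at -0.42 (SE 0.11, adjusted p = 0.0209), and Tnfrsf13b, the BAFF and APRIL receptor TACI, at -0.71 (SE 0.23, adjusted p = 0.0339). The other BAFF and APRIL receptor of plasma cells, Tnfrsf17, differed by -0.31 (adjusted p = 0.13, limma) and lay below the poor mean of its label in 11 of 11 rich samples. The plasma cell homing receptor Ccr10 differed by -0.02 (adjusted p = 0.941).

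The interferon response list divided into members that rose and members that did not. Of 18 genes, 5 rose (Ifih1, Ddx58, Mx1, Irf1 and Cxcl11), Cxcl9 fell and 12 were not called, with a median of 0.08 that was -0.08 under quantile normalization. The shares over all genes were 10.5% called higher and 6.81% lower. Of the 18, 6 were called higher and 1 lower under centring, and 2 higher and 1 lower under quantile normalization. Without the 3 lowest-scoring antibiotic samples 0 were called. Ifih1, the cytosolic RNA sensor MDA5, ranged from 10.62 to 11.19 in rich (median 10.79) and from 9.60 to 10.93 in poor samples (median 10.37), a rise of 0.48 (SE 0.13, adjusted p = 0.0216, limma). Ddx58, the sensor RIG-I, rose by 0.36 (adjusted p = 0.0413, limma), as did Tlr3, the endosomal receptor for double-stranded RNA, by 0.42 (adjusted p = 0.0255), so that the 3 sensors of double-stranded RNA, grouped after their values had been seen, were each called higher. Of these 3, 1 was called under quantile normalization and 0 without the 3 lowest-scoring antibiotic samples, with medians of 0.29 and 0.31. Ddx58 was called in 9 of 24 fits that left out a sample. Mx1, an antiviral GTPase, rose by 0.36 and the transcription factor Irf1 by 0.34 (adjusted p = 0.0306 and 0.0257, limma). Cxcl9, a chemokine induced by interferon gamma, ranged from 5.94 to 8.19 in rich (median 6.72) and from 6.23 to 9.11 in poor samples (median 7.27), a difference of -0.64 (SE 0.17, adjusted p = 0.0209, limma). Its rich and poor values did not overlap in Control, at 8.02 to 8.19 against 8.63 to 9.11. Cxcl11, which binds the same receptor, Cxcr3, rose by 0.38 (adjusted p = 0.0443, limma), and Cxcl10 differed by -0.31 (adjusted p = 0.105). Other uncalled members differed by as much in either direction. Bst2 was at -0.56 (adjusted p = 0.0568, limma), Ifi204 at -0.50 (adjusted p = 0.0583), Ifit2 at -0.29 (adjusted p = 0.241) and Stat2 at 0.49 (adjusted p = 0.105). In all, 11 of the 18 differences were above 0 and 7 below, so the list had no common direction.

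Signalling components also stood among the genes called higher. They were grouped after their values had been seen. Of 5 genes of the IKK complex and its relatives, 4 kinases of NF-kB and interferon signalling and the regulatory subunit Ikbkg (NEMO), 4 rose (Chuk 0.42, Ikbke 0.41, Tbk1 0.40 and Ikbkg 0.34), with Ikbkb at 0.31 (adjusted p = 0.0794, limma). For these 5 genes each of the 11 rich samples lay above the poor mean of its label. Of 11 Janus kinase and STAT genes 5 rose (Stat3 0.46, Jak2 0.42, Tyk2 0.41, Jak1 0.34 and Stat6 0.32), of 4 NF-kB subunits 2 (Nfkb1 0.37 and Nfkb2 0.33), and of 4 IRAK kinases 2 (Irak2 and Irak4), none of these genes falling. Over all genes 10.5% were called higher. Under quantile normalization 2 of the IKK and TBK1 group, 2 of the Janus kinase and STAT group and 0 of the NF-kB and IRAK groups were called higher. Without the 3 lowest-scoring antibiotic samples 0 were called in each group, with medians of 0.26, 0.20, 0.24 and 0.15. Rela, the NF-kB subunit p65, differed by 0.14 (adjusted p = 0.239, limma). The adjusted p of the called members named with values here ran from 0.0165 (Tbk1) to 0.0306 (Nfkb1) in limma.

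Of 16 broadly expressed genes that are not specific to a cell type, 6 rose (Abcf1, App, Ctnnb1, Ikbkg, Jak1 and Tollip), none fell and 10 were not called, with a median of 0.24. Over all genes tested, 10.5% were called higher. The count for this list depended on the fit, with 10 called higher under centring, 1 under quantile normalization and 1 without the 3 lowest-scoring antibiotic samples. Ctnnb1, beta-catenin of epithelial junctions and Wnt signalling, ranged from 13.61 to 14.33 in rich (median 14.07) and from 12.94 to 14.19 in poor samples (median 13.51), a rise of 0.44 (SE 0.12, adjusted p = 0.0216, limma). Of 15 stroma and vessel genes, the matrix protein Tgfbi rose (0.43, SE 0.12, adjusted p = 0.0216, limma), the oxidase Nox4 fell (-0.49, SE 0.16, adjusted p = 0.0339) and 13 were not called, with a median of -0.10. Vessel markers Pecam1 and Cdh5 differed by 0.08 and 0.07 (adjusted p = 0.843 and 0.865, limma). Of 16 genes of Th17 and type 3 immunity, Maf and the receptor chain Il17ra (0.42, SE 0.12, adjusted p = 0.0242, limma) rose, none fell and 14 were not called, with a median of 0.03. Beside both lists stand the shares over all genes, 10.5% called higher and 6.81% lower. Under centring 3 stroma and vessel genes were called higher, under quantile normalization 0, and without the 3 lowest-scoring antibiotic samples 0. For the Th17 and type 3 list these counts were 3, 2 and 1.

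**Figure D5:**
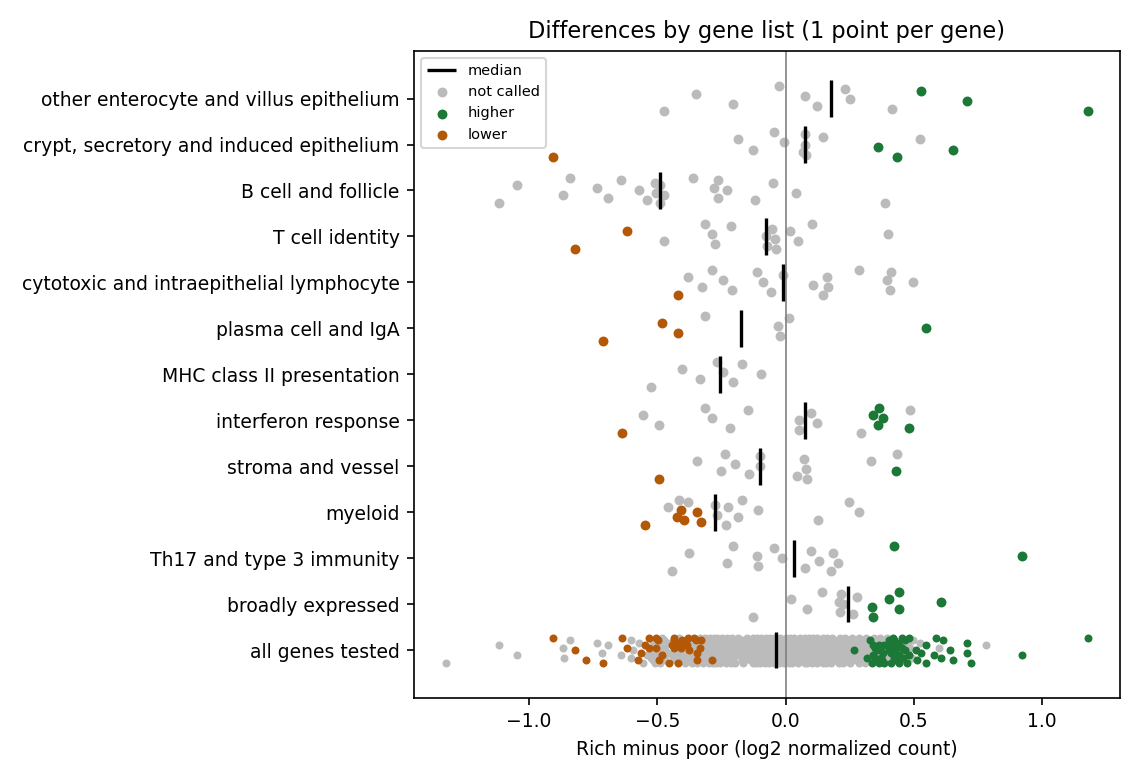
Rich minus poor differences (log2 normalized count, horizontal axis) of the genes of 12 lists and of all 543 genes tested, 1 point per gene, with the vertical position within a row only spreading the points. Green points are genes called higher, brown points called lower and grey points not called, and black bars are medians. Medians run from -0.49 for the B cell list, with no gene called, to 0.24 for the broadly expressed list, and the calls of the myeloid list are all to the left of 0.

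Total counts were compared between the sides. Rich samples held 467874 to 750256 counts (median 630985) and poor samples 171671 to 782392 (median 566987), a difference of 0.40 in log2 total within labels (two-sided exact permutation test within labels, p = 0.04967, and 0.09933 after adjustment over 4 measures). The medians in rich and poor samples were 690827 and 576534 in Control, 574243 and 341939 in PAT1, and 571018 and 625464 in PAT3, so that the order was turned in PAT3. The median log2 value of a sample was 0.10 lower in rich samples (exact permutation test, p = 0.04264, adjusted 0.09933), and the share of counts in the 5 most abundant genes 1.42 percentage points lower (exact permutation test, p = 0.1992, adjusted 0.2656). Rich samples held 7 females of 11 and poor samples 5 of 13 (exact permutation test, p = 0.4285). Genes called higher had a median mean log2 count of 9.80 and genes called lower of 6.95, counts that depend on each probe and are not levels per length. With the log2 size factor as a covariate 90 genes were called, 69 of them among the 94, and with sex 68, of which 61 were. In male and in female samples alone 0 genes were called in limma, with 39 and 98 at an unadjusted p under 0.05, and the 94 genes kept their sign in each.

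The score was also entered as a covariate in the comparisons of the antibiotic groups with Control, over the 543 genes outside it. In PAT1 97 genes (17.9%) were called without the score, 38 higher and 59 lower, and 129 (23.8%) with it, 59 higher and 70 lower, among them the 97. In PAT3 172 genes (31.7%) were called without it, 75 higher and 97 lower, and 205 (37.8%) with it, 97 higher and 108 lower, among them 170 of the 172. With the division into rich and poor in place of the score the counts were 122 and 186. These comparisons share the Control samples. Ceacam1, Btnl1 and Abcb1a, which enter the score, themselves differed between an antibiotic group and Control. The score is therefore not a measure of enterocyte content free of treatment, and what the added calls reflect was not tested.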

How the data were processed

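RNA of the terminal ileum of 24 mice was counted on the nCounter GX mouse immunology panel. The authors normalized the counts with DESeq2 and deposited a table of log2 values, 547 genes by 24 samples. Values listed at 0 (19 of 13128) and below (lowest -0.35) stand for counts of 0 or 1, and no background correction is given in the sources used here. Taken off the log scale, the values of a sample were whole multiples of 1 step, which gave whole counts (100%, tolerance 0.01 counts) and from them the totals. No value column was left unassigned. Totals set the counting error. Size factors ran from 0.40 (PAT1 replicate 1) to 1.54 (PAT1 replicate 7). Whether depth also shifted the differences was not tested apart from the fit with the size factor as a covariate.

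Groups and sex came from the labels. The score, the division and a fit of 543 genes on treatment label and division were computed from the deposited log2 values with limma 3.58.1 (lmFit, eBayes) in R 4.3.3, without pseudocount or filter, with Benjamini-Hochberg adjustment and a threshold of 0.05. Label-specific differences and their interaction came from a fit of 6 means. The fit on treatment label and division was also run on simulated data with known differences added. The simulated noise was independent between genes and of the division, unlike in these samples, so that run does not check the calls. Single measures were compared by two-sided exact permutation within labels (308700 arrangements). P-values treat mice as independent, which litters and cages may not be.

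Named were the score genes, the 12 largest called rises and falls with a mean log2 value of at least 5, every gene of the other enterocyte list, and the 2 members of smallest p of each other list. Further genes were named after their values were seen. The samples' division and all gene lists were chosen with earlier results of these data known. Alternatives were a filter on low values, other scalings, voom on recovered counts, sample weights, the methods' per-gene aov, covariates, other scores, each sex alone and each sample left out.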

Additional observations from a re-analysis of the deposited data

Results flagged for a closer look

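A sample stood far from the others of its label in 16 of 156 sets of values examined. The rule would flag about 1 in 20 of independent sets, but these sets varied together. They include the score genes that defined the sides and genes named for their difference between them. The count is therefore a description and was not set against chance. The score, the 4 score genes and the named genes were examined in each label. PAT3 replicate 5, the sample with the lowest score, was lowest of the 10 PAT3 samples for Btnl1 (10.12, next 11.48), Mme (6.45, next 8.88), Btnl2 (6.40, next 8.02), Gm10499 (8.21, next 9.40) and Ccl25 (13.14, next 13.71). PAT1 replicate 1, the sample with the fewest counts, was lowest of the 7 PAT1 samples for Dpp4 (11.38, next 12.61), Btnl1 (11.44, next 12.21) and Cx3cl1 (8.39, next 9.65). PAT3 replicate 7 was lowest for Pigr (12.75, next 14.50), Igf2r (8.72, next 9.83) and Tnfrsf14 (8.75, next 9.46), and highest for the leukocyte genes Cd48 (7.72, next 7.01) and Arhgdib (9.90, next 9.20). In Control, replicate 7 was highest for Tnfrsf14 (10.20, next 9.80) and lowest for Cd1d1 (6.41, next 6.96), and replicate 3 was highest for Cd9 (11.89, next 11.59). Thus 13 of the 16 belonged to the 3 samples that were left out together above.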

How the results depend on the processing

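The 94 called genes kept their sign in every alternative in which they were tested. The counts of genes called higher and lower, 57 and 37, were 100 and 15 with each sample centred on its median, 31 and 24 after quantile normalization, 44 and 24 with sex as a covariate, 124 and 95 with the score as a continuous term, 70 and 58 without the median samples of Control and PAT1, and 33 and 23 with the score computed without Abcb1a, in which Control replicates 1 and 3 changed sides. In males alone and in females alone they were 0 and 0 in limma, with 39 and 98 genes at an unadjusted p under 0.05. Leaving out each sample in turn gave 18 to 74 higher and 13 to 50 lower. The fewest were called without PAT1 replicate 6 (18 and 13), PAT1 replicate 5 (25 and 16) and PAT1 replicate 1 (40 and 19), and 19 to 22 were called lower without PAT1 replicate 1, Control replicates 2, 4 or 7, or PAT3 replicates 7 or 9. In an alternative chosen after seeing the data, without PAT1 replicate 1 and PAT3 replicates 5 and 7, they were 7 and 1. In each of the 24 fits 30 genes remained called, 18 higher and 12 lower. Of the 33 named genes called, 16 were called in each of these fits, 8 lost the call in 1 to 3 and 9 in more. The filter on low values (73 and 46), voom (61 and 37), sample weights (58 and 42), the methods' aov (65 and 36), the size factor (51 and 39) and the B cell mean (50 and 37) stayed within 1.5 times, and scores without Dpp4, Ceacam1 or Btnl1 gave the identical division. Signs reversed only for uncalled genes. Pparg was 0.0722 under centring, 0.05014 under quantile normalization, 0.0167 with sex, 0.0288 with the size factor, 0.165 with the continuous score, 0.174 in males and -0.114 to 0.0734 on leaving out a sample. Il18 was -0.04209 under quantile normalization, -0.277 in males, and -0.0404 and -0.009115 without Control replicate 5 and PAT3 replicate 5. Ccl25 and Cd9 were -0.17 and -0.10 under quantile normalization. The cause of these changes was not tested. No paired analysis was possible because the labels give no replicate numbers. Counting error weighs most on genes of low counts, and its part in the spread of the B cell genes was not tested.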

Other observations

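Bst1, an ectoenzyme of the ileum and of leukocytes, spanned a wide range on either side, from 7.00 to 11.23 in rich (median 9.50) and from 5.54 to 10.98 in poor samples (median 9.25), a difference of 0.78 with SE 0.40 (adjusted p = 0.164, limma). As deviations from label means over the 24 samples it correlated with Mme at r = 0.86 and with Pigr at r = 0.09, and Mme with Pigr at r = 0.29, although Mme and Pigr were both called higher. Ltb4r2, a receptor for lipid mediators whose mean log2 value lay under 5, rose by 0.72 (SE 0.21, adjusted p = 0.0257, limma), with 0.70, 0.73 and 0.74 within Control, PAT1 and PAT3.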
